A study of Homo sapiens with 4 samples.

Results

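Exon skipping was described for the solute carrier genes, whose symbols start with SLC and a number. Members were the rows of the authors' deposited skipped exon table with such a symbol and 20 or more junction reads per library on average, where a junction read is one that spans a splice junction. The rule kept 998 of 1200 SLC events, in 750 exons of 179 genes, out of 65601 events in the whole table. The other 202 SLC events were too shallow, and 34 SLC genes had no event above the minimum. An event is a run of 3 exons whose middle exon is either included or skipped, and the inclusion level is the fraction of transcripts with the middle exon, corrected for the length of each form.

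The cells were 293T, a line derived from human embryonic kidney. In one group of 2 libraries, cells received an antisense oligonucleotide (ASO) against Snord89 at 70 nM, a gapmer that directs RNase H to cut the RNA it pairs with, and RNA was taken at 48 hours. In the other group of 2 libraries the treatment is given as none. All labels carry the same transfection text, so whether the untreated cells received the lipid reagent is not known, and no control oligonucleotide is named. The headers name the groups only as a first and a second set, so directions are given as first set against second set and are not assigned to the ASO. Replicates are labelled as biological, but the table does not say which library is which replicate, and p-values refer to these libraries alone. In the models fitted here the spread was shared in part across events, so it is not that of an event's own libraries alone.

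SNORD89 belongs to the C/D box small nucleolar RNAs, a class named after a pair of short conserved motifs and known for guiding 2'-O-methylation of other RNAs. The sequence of the targeted RNA is shown because it is the only RNA the study set out to change. Its level cannot be checked in a table of skipped exons. It is taken from the GENCODE release 29 transcripts (GRCh38, 5′ to 3′), with the first TGATGA, the core of box C, and the last CTGA, box D, in capitals.
SNORD89: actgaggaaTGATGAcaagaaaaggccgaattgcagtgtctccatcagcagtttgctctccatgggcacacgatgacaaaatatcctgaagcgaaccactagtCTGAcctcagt

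Solute carriers are membrane proteins that move ions, nutrients, metabolites and metals across the plasma membrane and the membranes of organelles, by facilitated diffusion, by cotransport with an ion or by exchange. Most span the membrane many times, so a skipped coding exon usually removes or rearranges transmembrane segments, and an exon that shifts the reading frame can expose the transcript to nonsense-mediated decay. By symbol the rule also took 17 events of 5 genes whose products are not transporters, among them SLC9A3R1, a scaffold protein, and SLC2A4RG, a transcription factor.

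The whole table held between 38613055 and 43929373 junction reads per library, of which 343470 to 376713 fell on SLC events. The median SLC event was shallower in the second set, with 98 and 113 reads against 157 and 135 in the first. Over all tested events the medians were 157 and 171 reads in the second set against 222 and 199. Of 6 marker genes of the line, 4 had skipped exon events, vimentin (VIM) with most reads, and none of 9 markers of blood, liver, fibroblasts or endothelium had any. A skipped exon table is no expression table, so this is a weak check of the label. Library 2 of the second set stood apart from the other 3 on the SLC genes. Among 626 SLC events with a mean inclusion level above 0.95, 139 had any skipping read in that library, against 346 and 334 in the first set and 292 in library 1 of the second set. Its share of skipping reads over these events was lower to a smaller degree, at 0.349% (95% Wilson interval 0.329 to 0.371%), against 0.435, 0.400 and 0.403% in the others. The intervals of the others (0.412 to 0.459, 0.377 to 0.4235 and 0.381 to 0.428%) did not overlap it. The skipping reads of library 2 of the second set were thus gathered on fewer exons, 7.77 per exon with any, against 3.45 to 3.89. Rarely included SLC exons showed the same: 20 of 71 had an inclusion read in that library, against 50, 42 and 45, at 11.8 reads per exon with any against 4.07 to 4.76. Over all tested events the corresponding shares for skipping were 23.9% in that library and 48.4 to 58.8% in the others. All intervals here cover counting error only, and reads without molecular identifiers are not independent molecules.

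Junction reads also leaned more to the 3' end of transcripts in the second set. For 34 SLC genes with at least 5 nearly always included exons, the median log2 ratio of reads on the last to reads on the first such exon was 0.61 and 0.96 in the first set, against 0.93 and 1.36. The mean ratio of the second set was higher in 29 of the 34 genes, and in 2011 of 2246 genes (89.5%) over the whole table. Neither feature was tested for its part in the differences below.

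SLC exons were alternative somewhat more often than the table as a whole, and shallower. A mean inclusion level between 0.05 and 0.95 was found for 301 SLC events (30.2%), against 24.6% of all tested events, and a level above 0.95 for 62.7% against 66.1%. The median depth was 128.25 reads against 190 reads, and the median exon length 127 nt against 118 nt. By the match of exon spacing to GENCODE 29, which placed 987 of the 998, 768 were coding, 103 partly coding, 76 in a UTR and 40 in transcripts with no coding sequence. A length divisible by 3 was found in 43.5% of the 209 coding SLC exons of intermediate inclusion and in 35.3% of the 546 nearly always included ones. The same shares over all tested events were 48.7 and 40.3%. In bulk RNA a level between 0 and 1 can come from a mixture of forms within each cell or from cells that differ, and these cannot be told apart.

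In the authors' deposited table, 38 SLC events were called, that is, they had a false discovery rate (FDR) under 0.05 and an inclusion difference of at least 0.1. That is 3.81% of members, beside 2.71% of all 54503 tested events. Among events of intermediate inclusion the shares were 12.3% (37 of 301) and 11%. The calls fell on 37 exons in 29 genes and split into 20 higher and 18 lower in the first set, 2.00 and 1.80% of members beside 1.34 and 1.37% of all tested events. Their median absolute difference was 0.171, with a range from 0.1 to 0.486. Called SLC events were shallow, with a median of 45.1 reads per library against 134.5 reads for the others, and 8 of the 38 had 100 reads or more. Across all members the median difference was -0.003, beside -0.002 over all tested events. The sets were separate, with no overlap of their libraries' levels, in 35 of the 38 and in 230 of all members (23.0%), beside 22.8% of all tested events. A difference of at least 0.1, whatever its FDR, was found in 103 members (10.3%), beside 7.19% of all tested events.

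**Figure D1:**
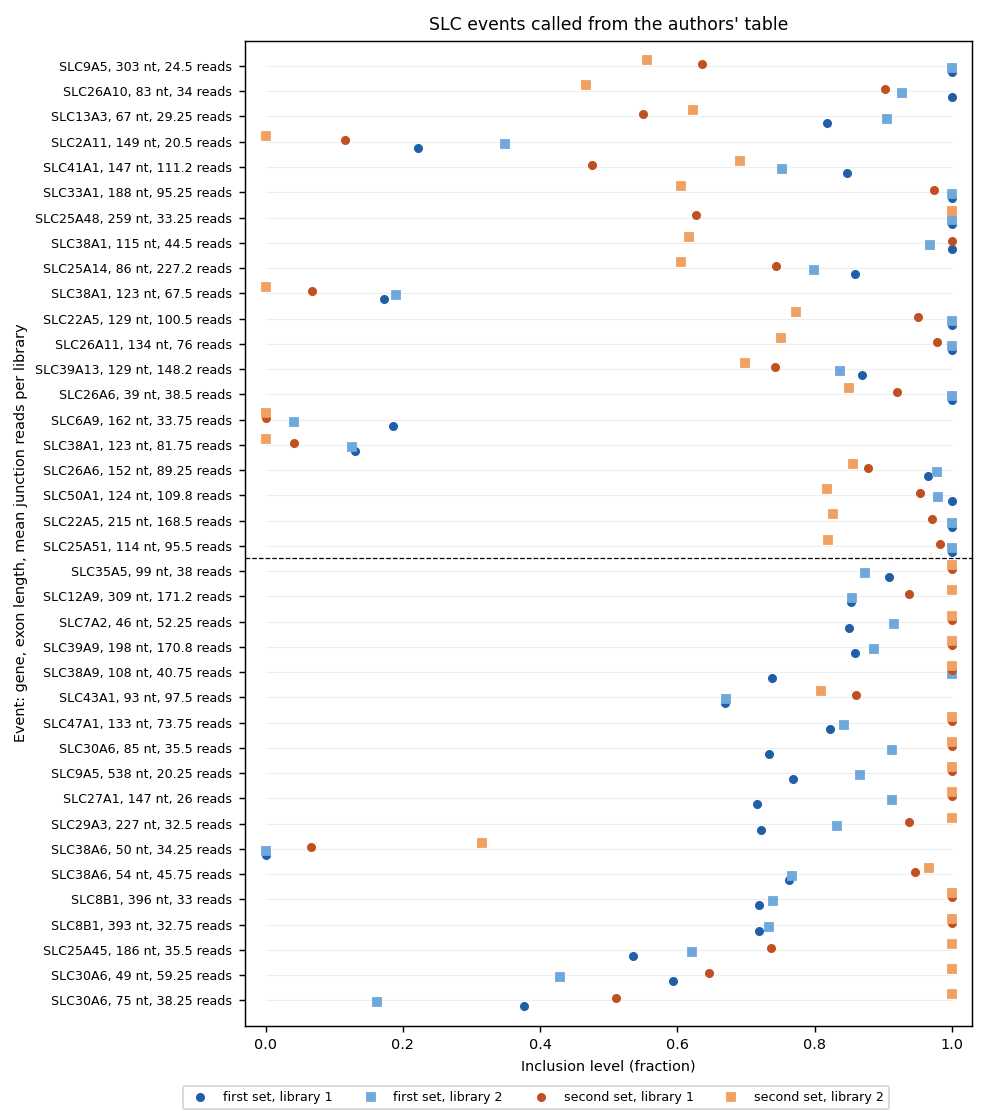
Inclusion level (fraction, horizontal axis) of the 38 called SLC events in each of the 4 libraries; rows give the gene, the exon length and the mean junction reads, and the dashed line parts the 20 events higher in the first set (above) from the 18 lower in it. In 10 events both libraries of the second set sit at 1 and in 8 both libraries of the first set do.

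Leaving out library 2 of the second set took away most calls in 1 direction. Without it, 24 of the 38 kept their direction and a difference of 0.1 or more: 8 of the 20 that were higher in the first set and 16 of the 18 that were lower. With any other library left out, 31, 35 and 37 of the 38 did so. The same counts for calls over all tested events are not given here, so whether this is particular to SLC genes is not known. In 10 of the 18 lower events both libraries of the second set were at 1, so leaving out either could not move the difference. In 8 of the 20 higher events the same held for the first set and its libraries. For these events, keeping the difference is no check of the call. Within-set scatter of SLC events of intermediate inclusion was also larger in the second set, with a median gap between its libraries of 0.112 against 0.0530 in the first set, and gaps above 0.2 in 27.3 and 8.31% of events.

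**Figure D2:**
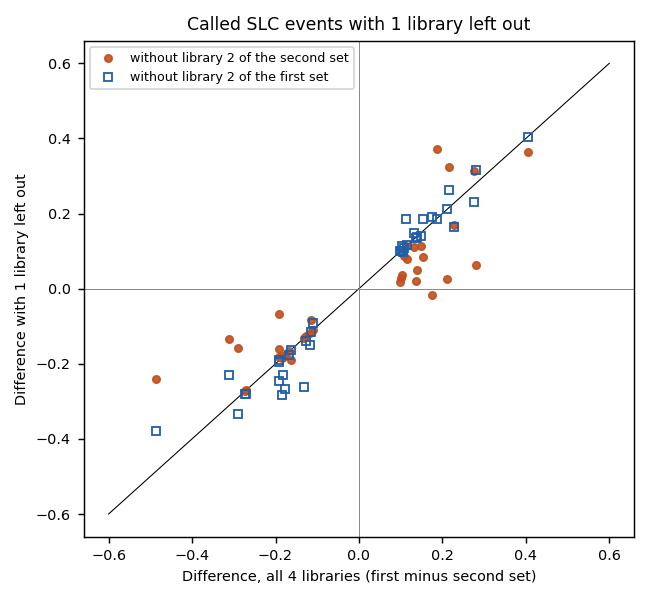
Inclusion difference (first minus second set) of the 38 called SLC events with all 4 libraries (horizontal axis) and with 1 library left out (vertical axis); points on the diagonal do not move. Without library 2 of the second set (filled circles) 8 of the 20 positive differences stay at 0.1 or more, and without library 2 of the first set (open squares) 18 do.

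By a quasi-binomial model, the SLC count rested on 1 modelling choice made after results were known. The model's error is the scatter among libraries of a set, moderated across all tested events and never taken below counting error. As first fitted, the model counted the libraries of a set at exactly 0 or 1 in the degrees of freedom of the spread, and it gave no SLC event and none of the 54503 tested events an adjusted p under 0.05. The lowest adjusted p of an SLC event was 0.644, and 85 members (8.52%) had an unadjusted p under 0.05, beside 7.69% of all tested events. The rule was then changed, with that null result and an earlier count of 16 events in view, so that such sets give no degree of freedom. The changed model gave 1 SLC event an adjusted p under 0.05 (0.1% of members), beside 0.0294% (16 events) of all tested. Under it an unadjusted p under 0.05 was found for 75 members (7.52%), beside 6.72% of all tested events, and for 24 of the 38 calls. The values below are from the changed model unless stated. A limma fit with precision weights, also added after the data were seen, gave 4 members an adjusted p under 0.05 (0.401%, beside 0.657% of all tested), and 112 (11.2%) an unadjusted one, beside 9.92%. The 4 were the SLC20A1 exon of the changed model, the called exons of SLC25A14 and SLC41A1, and an uncalled SLC26A6 exon of 165 nt. That SLC26A6 exon was at 0.972 and 0.965 against 1 and 0.642, so the second set lay on both sides of the first.

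**Figure D3:**
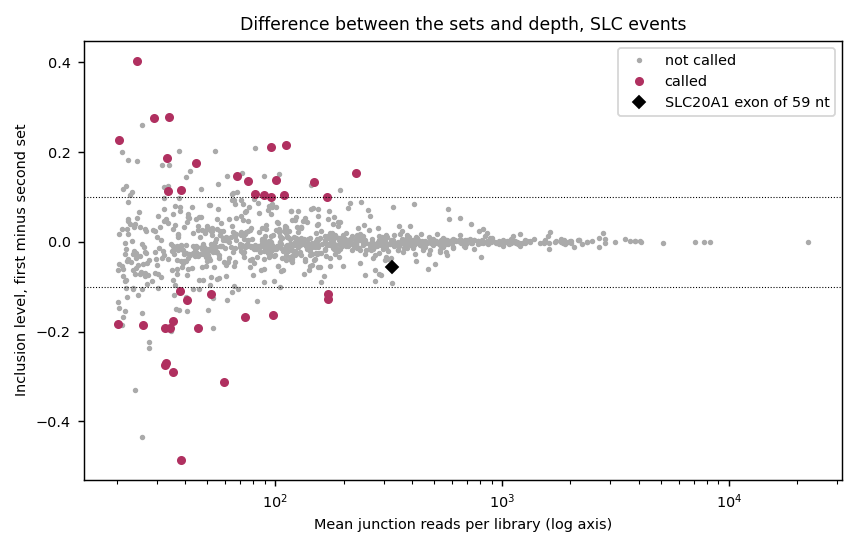
Inclusion difference (first minus second set) against mean junction reads per library (log axis) for the 998 SLC events; dotted lines mark differences of 0.1 and -0.1. Called events (filled circles) crowd at low depth, with a median of 45.1 reads, while the SLC20A1 exon of 59 nt (diamond) has a mean of 326.75 reads.

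SLC20A1 (ENSG00000144136.6) encodes PiT-1, a sodium-dependent importer of inorganic phosphate at the plasma membrane. Its exon of 59 nt at 113410466 to 113410524 on the plus strand of chromosome 2 (hg19) was the 1 SLC event past the threshold of the changed quasi-binomial model, and it did not pass in the model as first fitted. The exon was rarely used: library 1 of the first set had 10 inclusion reads beside 441 skipping reads, and library 2 had 2 beside 364. In the second set there were 6 inclusion and 185 skipping reads in library 1, and 44 and 255 in library 2. In the first set the level was 0.0160 (95% interval 0.00869 to 0.0292) in library 1 and 0.00392 (0.00107 to 0.0142) in library 2. In the second set it was 0.0227 (0.0104 to 0.0488) and 0.110 (0.0825 to 0.145). Library 2 of the second set was high and the other 3 lay close together, with the sets just separate. In the authors' deposited table the difference is -0.057 with FDR 3.6e-07, so the event passed the FDR but not the difference of 0.1. The quasi-binomial adjusted p was 0.644 (unadjusted p 0.00217) in the model as first fitted, 0.0426 (1.19e-05) in the changed model, and 0.00038 by limma with precision weights. Whether the exon passed thus depended on a rule chosen after the first outcome was seen, and the call is not independent of that choice. Without library 2 of the second set the difference was -0.0128, and without library 1 of that set it was -0.1001, so library 2 of the second set decides the value. Without library 1 or 2 of the first set it was -0.0624 and -0.0504. Adjusted p-values with a library left out are not read here, since without a first-set library 0 and 1 of all tested events passed.

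GENCODE 29 holds this exon in a transcript of the nonsense-mediated decay class alone. Inclusion shifts the frame, and the stop codon of that transcript falls in the next exon, 15 nt before its end. Both exons are shown for this reason, from that transcript (GRCh38, sense strand), with the stop codon in capitals.
SLC20A1 exon of 59 nt: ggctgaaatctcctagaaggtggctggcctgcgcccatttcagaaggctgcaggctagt
SLC20A1 next exon: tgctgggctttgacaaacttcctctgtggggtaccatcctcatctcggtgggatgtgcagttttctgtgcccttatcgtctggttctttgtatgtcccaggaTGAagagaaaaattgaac

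The other 5 SLC20A1 events were included almost always. Their levels lay at 0.970 or above in every library, and the authors' deposited table has differences from -0.001 to 0.026, each at FDR 1. Reads on SLC20A1 differed along the gene: the exon of 600 nt near the 5' end had 406 and 347 reads in the first set against 147 and 133 in the second. The exon of 186 nt near the 3' end had 1182 and 1253 against 1085 and 951. The log2 ratio of the last to the first nearly constant exon was 1.29 and 1.504 in the first set against 2.59 and 2.47 in the second set. SLC20A2, the related PiT-2, had an alternative exon of 164 nt on chromosome 8 at levels of 0.424 and 0.345 against 0.316 and 0.475, where the sets overlapped (FDR 1 in the authors' deposited table). None of 19 events in the group of phosphate and organic anion families was called, beside 2.71% of all tested events. Of the 19, 7 were of SLC17A5, and the group is too small to read its count as a difference.

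**Figure D4:**
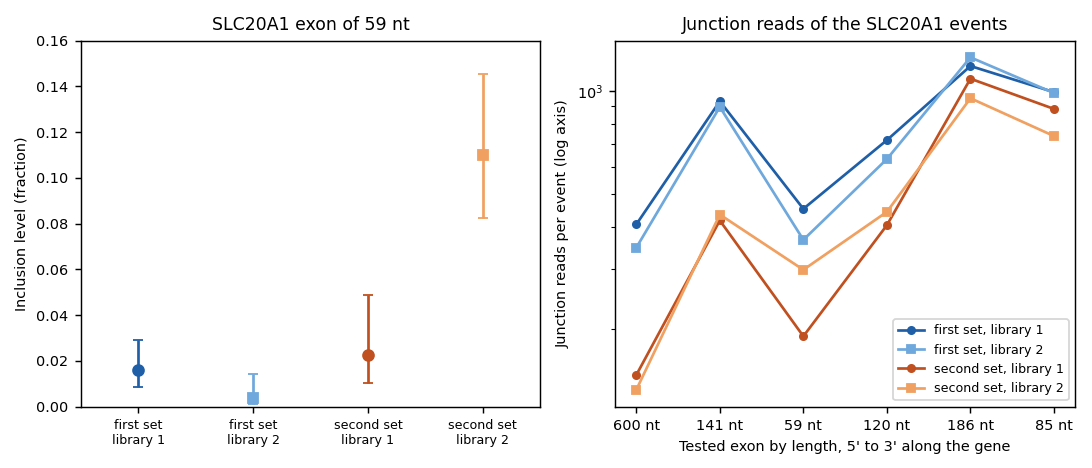
Left, inclusion level (fraction) of the SLC20A1 exon of 59 nt in each library, with 95% Wilson intervals as bars; right, junction reads (log axis) of the 6 tested SLC20A1 events in order along the gene, labelled by exon length. Library 2 of the second set is at 0.110 while the other 3 lie at 0.0227 or below, and the sets differ in reads at the 5' end more than at the 3' end.

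A similar pattern at low inclusion was seen in SLC25A15, the mitochondrial ornithine carrier, named after its values were seen. Its exon of 166 nt, annotated outside any coding transcript, had 0 inclusion reads beside 195 and 164 skipping reads in the first set. In the second set it had 2 beside 93 and 18 beside 118, for levels of 0.0106 and 0.0709 (difference -0.041, FDR 0.000904 in the authors' deposited table). In all, 30 members had an FDR under 0.05 but a difference under 0.1, which with the 38 calls makes 6.81% of members beside 5.72% of all tested events. Of the 30, 17 had a mean inclusion above 0.95 and 6 under 0.05.

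Calls differed in number between substrate groups, and most groups were small. Groups follow the family number in the symbol, so they also hold the 17 events of the 5 genes that are not transporters. The largest counts were in carriers of amino acids and their partners (9 of 168 events), in exchangers and cotransporters of bicarbonate, chloride, sulfate and protons (7 of 103) and in metal carriers (6 of 99). The 237 events of mitochondrial carriers held 4, and the 99 of nucleotide sugar carriers 1. No test of a group against the others was made.

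**Figure D5:**
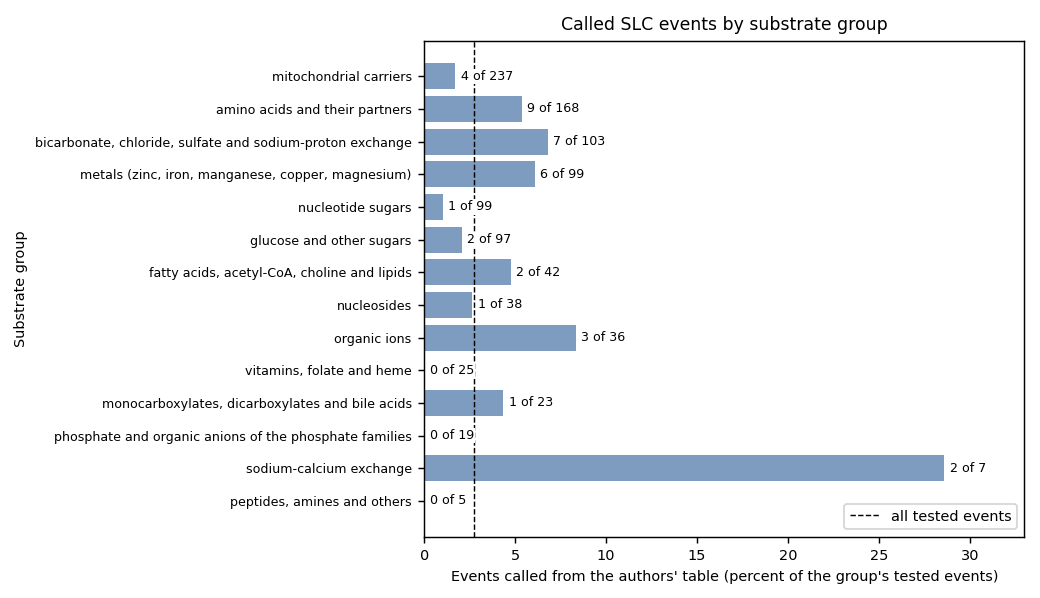
Events called from the authors' deposited table as a percent of each substrate group's tested SLC events (horizontal axis), with the counts beside the bars and a dashed line at 2.71% for all tested events. Mitochondrial carriers (4 of 237) lie below the line and amino acid carriers (9 of 168) above it; the longest bar rests on 2 of 7 events.

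Metal carriers held 6 calls in 4 genes. SLC39A9 encodes ZIP9, a zinc transporter. Its coding exon of 198 nt (69908786 to 69908983, chromosome 14, plus strand) was at 0.859 (95% interval 0.793 to 0.907) in library 1 of the first set and 0.887 (0.812 to 0.935) in library 2, from 251 and 184 reads. In the second set it was at 1 (0.929 to 1) and 1 (0.9503 to 1), from 101 and 147 reads with no skipping read. In the authors' deposited table the difference is -0.127 and FDR is 1.91e-05, the lowest among the 38 calls, and the quasi-binomial p was 0.00120 (adjusted 0.299). SLC39A13, or ZIP13, also a zinc transporter, moved the other way. Its coding exon of 129 nt (47436328 to 47436456, chromosome 11, plus strand) was at 0.870 and 0.837 in the first set, against 0.742 and 0.699, with 144 to 153 reads. The libraries of each set lay close together, and the difference of 0.133 (FDR 0.0390 in the authors' deposited table) was 0.111 without library 2 of the second set.

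SLC41A1 encodes a magnesium transporter. Its coding exon of 147 nt (205767797 to 205767943, chromosome 1, minus strand) was at 0.847 and 0.753 in the first set against 0.475 and 0.691, from 192, 134, 70 and 49 reads. All first-set values lay above the second-set ones, and here library 1 of the second set was the lower. In the authors' deposited table the difference is 0.217 with FDR 0.0454, and limma with precision weights gave an adjusted p of 0.0429. The quasi-binomial p was 0.00712 (adjusted 0.493), and without library 1 of the second set the difference was 0.109. SLC30A6, or ZnT6, a zinc transporter of the Golgi, had 3 called events. The pair at 32422387 to 32422461 and 32422413 to 32422461 (chromosome 2, plus strand) shares its end and its skipping reads. The 49-nt form was at 0.593 and 0.429 against 0.646 and 1, and the 75-nt form at 0.377 and 0.163 against 0.511 and 1, the largest difference of the 38 at -0.486. Library 2 of the second set had 0 skipping reads on them. Without it the differences were -0.135 and -0.241, so both shrank by more than 1.5 times. The third call, on an exon of 85 nt, was at 0.734 and 0.912 against 1 and 1, with 15 and 11 reads in the second set.

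Skipping the SLC39A9, SLC39A13 and SLC41A1 exons keeps the reading frame in the matched GENCODE 29 transcripts. The exons are shown because they carry the deepest metal carrier calls (GENCODE 29, GRCh38, sense strand), with capitals on the last 3 bases, which abut the 5' splice site.
SLC39A9: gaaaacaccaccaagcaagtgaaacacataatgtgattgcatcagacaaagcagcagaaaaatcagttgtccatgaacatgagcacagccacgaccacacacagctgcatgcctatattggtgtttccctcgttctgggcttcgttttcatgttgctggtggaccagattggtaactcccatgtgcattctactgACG
SLC39A13: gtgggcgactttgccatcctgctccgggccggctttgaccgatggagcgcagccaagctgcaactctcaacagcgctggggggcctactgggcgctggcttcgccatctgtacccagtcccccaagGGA
SLC41A1: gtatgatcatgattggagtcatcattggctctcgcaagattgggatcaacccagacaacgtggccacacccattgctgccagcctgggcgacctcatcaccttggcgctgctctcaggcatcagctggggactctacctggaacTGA

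Among the mitochondrial carriers, SLC25A14 had the deepest call of all, with a mean of 227.25 reads. It encodes an inner membrane carrier also known as UCP5 and is most noted in brain. Its coding exon of 86 nt (129484620 to 129484705, chromosome X, plus strand) was at 0.859 (95% interval 0.796 to 0.905) in library 1 of the first set and 0.799 (0.741 to 0.847) in library 2. In the second set it was at 0.744 (0.672 to 0.806) and 0.605 (0.529 to 0.677), so the sets were separate, with library 2 of the second set lowest. In the authors' deposited table the difference is 0.154 with FDR 0.0210. The quasi-binomial p was 0.00528 (adjusted 0.454), and limma with precision weights gave an adjusted p of 0.0373. Without library 2 of the second set the difference was 0.0847. Skipping this exon shifts the frame and leaves a stop codon 50 nt or more before the last junction of the matched transcript. The exon is shown for that reason, with the last 3 bases in capitals.
SLC25A14: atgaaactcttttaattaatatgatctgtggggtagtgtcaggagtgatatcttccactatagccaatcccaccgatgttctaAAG

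The remaining 3 mitochondrial carrier calls were less firm. SLC25A51, an importer of NAD+, had an exon of 114 nt at 1 in both first-set libraries and at 0.982 and 0.819 in the second, a difference of 0.1 that became 0.0179 without library 2 of the second set. SLC25A48 was at 1 in 3 libraries and at 0.628 in library 1 of the second set, from 35 reads. The exon of 186 nt in SLC25A45 was at 0.535 and 0.622 against 0.737 and 1, from 30 to 46 reads.

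Deep alternative exons of mitochondrial carriers that were not called had narrow limits. SLC25A11, the oxoglutarate carrier, had an in-frame exon of 153 nt with 2347 to 3154 reads per library, at 0.938 and 0.945 against 0.914 and 0.930 (difference 0.019, FDR 0.212 in the authors' deposited table). SLC25A10, the dicarboxylate carrier, had an exon of 245 nt at 0.148 and 0.143 against 0.148 and 0.151 (difference -0.004 in the authors' deposited table). SLC25A1, the citrate carrier, had an exon of 139 nt at 0.868 and 0.860 against 0.871 and 0.830, where the sets overlapped. Another event on the same exon, with a mean of 2677 reads and a mean inclusion of 0.983, passed the FDR with a difference of -0.011 (FDR 0.0349 in the authors' deposited table). In SLC25A23, a carrier of ATP-Mg and phosphate regulated by calcium, 11 of 20 events were of intermediate inclusion and 0 were called. Its exon of 168 nt was at 0.844 and 0.846 against 0.799 and 0.875, so the second set lay on both sides of the first.

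Amino acid carriers held 9 calls in 6 genes. SLC43A1, or LAT3, which carries branched-chain amino acids, had a coding exon of 93 nt (57265226 to 57265318, chromosome 11, minus strand) at 0.670 and 0.671 in the first set, against 0.860 and 0.809, with 66 to 126 reads. Both second-set libraries were higher, and the difference of -0.164 (FDR 0.0438 in the authors' deposited table) was -0.190 without library 2 of the second set. SLC38A6, a member of the neutral amino acid transporter family, had a coding exon of 54 nt (61510168 to 61510221, chromosome 14, plus strand) at 0.762 and 0.768 against 0.946 and 0.967, from 33 to 59 reads. The libraries of each set again lay close together (difference -0.191, FDR 0.00566 in the authors' deposited table). Skipping either exon keeps the frame. A second SLC38A6 exon, of 50 nt and placed in a nonsense-mediated decay transcript, had no inclusion read in the first set and levels of 0.0666 and 0.315 in the second. Without library 2 of the second set its difference was -0.0666 in place of -0.191. The in-frame exons of SLC43A1 and SLC38A6 are shown because their libraries agree within each set, with the last 3 bases in capitals.
SLC43A1: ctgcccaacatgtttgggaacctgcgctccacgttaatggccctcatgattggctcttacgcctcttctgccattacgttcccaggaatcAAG
SLC38A6: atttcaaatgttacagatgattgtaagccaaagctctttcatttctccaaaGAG

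SLC38A1, or SNAT1, a neutral amino acid transporter, had 3 calls, all in exons of the untranslated region and all higher in the first set. Its exon of 123 nt (46648597 to 46648719, chromosome 12, minus strand) had 2 of them. The one with the larger difference was at 0.173 and 0.190 against 0.0681 and 0, from 141 and 90 reads against 17 and 22. The call on its exon of 115 nt did not hold: it was at 1, 0.968 and 1 in 3 libraries and 0.617 in library 2 of the second set, and without that library the sign turned, to -0.0162. SLC6A9, the glycine transporter GlyT1, had an exon of 162 nt at 0.186 and 0.0411 against 0 and 0, with 11 and 3 inclusion reads. SLC38A9, a lysosomal arginine sensor, was called on skipping in library 1 of the first set alone, at 0.739 against 1 in the other 3. In SLC7A2, a carrier of cationic amino acids, the second set had 5 and 8 reads on the called exon.

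SLC3A2 encodes the heavy chain that pairs with several amino acid exchangers and brings them to the cell surface. It had 19 events, 7 of intermediate inclusion, and none was called. Its in-frame exon of 93 nt at 62638217 to 62638309 (chromosome 11, plus strand) was at 0.672 (95% interval 0.635 to 0.707) and 0.645 (0.609 to 0.680) in the libraries of the first set. In the second it was at 0.599 (0.563 to 0.634) and 0.661 (0.624 to 0.696), with 800 to 860 reads per library. The sets overlapped (difference 0.029, FDR 1 in the authors' deposited table).

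Among carriers of bicarbonate, chloride, sulfate and protons, the 7 calls lay in 5 genes. SLC12A9, of the cation-chloride cotransporter family, had an in-frame exon of 309 nt (100454490 to 100454798, chromosome 7, plus strand) at 0.853 and 0.854 against 0.938 and 1, from 139 to 203 reads. The first-set libraries agreed closely and the second-set ones were higher (difference -0.116, FDR 0.00123 in the authors' deposited table; -0.0843 without library 2 of the second set). SLC26A6, an anion exchanger for chloride, oxalate and bicarbonate, had 2 calls. Its exon of 152 nt was at 0.966 and 0.978 against 0.878 and 0.855, from 77 to 114 reads. Another event on that exon, with a mean of 94 reads, differed by 0.08 (FDR 0.0368 in the authors' deposited table) and was not called. The SLC26A6 exon of 39 nt was at 1 in the first set and at 0.920 and 0.850 in the second, from 31 and 57 reads. SLC26A11, a sulfate transporter, was at 1 and 1 against 0.978 and 0.751, and SLC26A10 at 1 and 0.928 against 0.902 and 0.467. Without library 2 of the second set their differences were 0.0216 and 0.0619 in place of 0.135 and 0.279. Another event on the called SLC26A11 exon, with a mean of 135.75 reads, differed by 0.054 (FDR 0.0121 in the authors' deposited table) and was not called. SLC9A5, the sodium-proton exchanger NHE5, had a mean of 20.25 and 24.5 reads on its called exons, of which that of 303 nt was at 1 and 1 against 0.636 and 0.556, from 18 and 7 reads in the second set.

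Organic ion carriers held 3 calls. SLC47A1, the multidrug and toxin extruder MATE1 of kidney and liver, had a coding exon of 133 nt (19470409 to 19470541, chromosome 17, plus strand) at 0.823 (95% interval 0.710 to 0.898) in library 1 of the first set and 0.843 (0.704 to 0.924) in library 2. In the second it was at 1 (0.905 to 1) and 1 (0.894 to 1), from 69 and 61 reads with no skipping read (difference -0.167, FDR 0.000244 in the authors' deposited table). Skipping it shifts the frame, with a stop codon 50 nt or more before the last junction. SLC22A5, the carnitine transporter OCTN2, had 2 overlapping calls with the same skipping reads, 0 and 0 in the first set against 2 and 16. Its exon of 215 nt was at 1 and 1 against 0.971 and 0.827, and the difference of 0.101 was 0.0292 without library 2 of the second set. The SLC47A1 exon is shown for its frame shift, with the last 3 bases in capitals.
SLC47A1: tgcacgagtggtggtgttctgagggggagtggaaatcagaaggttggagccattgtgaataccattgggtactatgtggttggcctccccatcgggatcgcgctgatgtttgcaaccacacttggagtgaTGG

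Calls in the remaining groups were few. SLC33A1, which carries acetyl-CoA into the endoplasmic reticulum, had an exon of 188 nt at 1 and 1 against 0.973 and 0.605, with 0, 0, 1 and 16 skipping reads. The difference of 0.211 became 0.0267 without library 2 of the second set. SLC27A1, a fatty acid transport protein, was at 0.716 and 0.914 against 1 and 1, from 18 to 36 reads. SLC8B1, the sodium-calcium exchanger of mitochondria, had 2 calls on a UTR exon that differ by 3 nt at 1 end. The shorter form was at 0.719 and 0.733 against 1 and 1, from 49 and 39 reads against 23 and 20. With both second-set libraries at 1, its difference could not move without library 2 of that set. SLC50A1, a sugar transporter of the SWEET family, was at 1 and 0.979 against 0.953 and 0.819 in its call, while another event on the same exon, with 486 reads and other neighbouring exons, differed by -0.002 (FDR 1 in the authors' deposited table). SLC2A11 (GLUT11), SLC13A3, a dicarboxylate transporter, SLC29A3, a nucleoside transporter of lysosomes, and SLC35A5 each had 1 call with a mean of 38 reads or fewer.

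Some exons past the FDR with differences under 0.1 had more reads. SLC2A8, SLC4A2 and SLC38A10 were chosen once their values were known, as were the exons whose sequences are printed. SLC2A8, a glucose transporter of intracellular membranes, had a coding exon of 197 nt at 0.881 and 0.884 against 0.960 and 0.986, from 276 to 427 reads (difference -0.09, FDR 0.000178 in the authors' deposited table). SLC4A2, an anion exchanger, had an exon of 170 nt at 0.991 and 0.987 against 0.978 and 0.955, from 1305 to 1854 reads. The microexon of 24 nt in SLC38A10 was at 0.103 and 0.0898 against 0.0240 and 0.0122. In each of these 3 the sets were separate.

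Skipping was traced in 511 SLC events whose 3 exons lie side by side in a protein-coding transcript of GENCODE 29. It kept the frame in 180 and left a stop codon 50 nt or more before the last junction in 222. For the 130 traced events of intermediate inclusion the counts were 50 and 47. For the 17 called events with such a transcript, nearly all calls being of intermediate inclusion, they were 9 and 6, with no test. Transporter genes outside the family, chosen by symbol and including ABC transporters and P-type ATPases, were read in the same way. Of their 373 events in 58 genes, 13 were called (3.49%), 6 higher and 7 lower in the first set, and 0 had a quasi-binomial adjusted p under 0.05. An unadjusted p under 0.05 was found for 19 (5.09%, below the share of SLC members and of all tested events), and 2 (0.536%) passed limma with precision weights.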

How the data were processed

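The authors deposited 1 table of skipped exon events in the layout of rMATS, per the file headers; the submitters' processing notes name cutadapt, STAR and the build hg19, and versions, settings and annotation are not given in the sources used here. Each cell of reads holds 2 libraries, with counts of inclusion and skipping junction reads as deposited and an inclusion level as a fraction made by the authors after division by form length. The p-value and FDR per event are the authors', per the file headers, and the difference in inclusion level is a deposited score from -1 to 1 (first minus second set). The largest gap between recomputed and deposited levels was 0.0005.

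Events with a mean of at least 20 reads were tested. Intervals are 95% Wilson intervals of the reads, put on the level scale by the form lengths. The quasi-binomial model was fitted per event over all 54503 tested events, with dispersion moderated by squeezeVar of limma 3.58.1 (R 4.3.3) and never under 1, and Benjamini-Hochberg adjustment over all of them. As first fitted, every library counted towards the residual degrees of freedom, and no event of 54503 had an adjusted p under 0.05. With this known, and an earlier count of 16 events in these data known, the model was changed so that a set with all libraries at 0 or 1 gives no degree of freedom. The changed model is the one reported and the first one is given beside it. Tested on simulated data with 200 events changed by 0.3, over 54503 events for the first set against the second, the first model found 44 with binomial noise and 57 with the fitted scatter, with 0% of its calls false. The changed one found 141 and 102, with 1.4 and 6.42% of its calls false. Limma with precision weights found 29 and 0. A difference as small as that of the SLC20A1 exon of 59 nt (-0.057 in the authors' deposited table) was not tested in this way. With 2 libraries against 2 an exact permutation test of 1 event cannot go below p = 0.333.

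Exons were matched to GENCODE 29 by the spacing of the 3 exons within a gene, with no coordinate converted: printed positions are hg19 with 1-based starts, and sequences are those of GENCODE 29 transcripts. Named were the 30 deepest called events, events past the quasi-binomial threshold, all SLC20A1 events, the 12 deepest uncalled events of intermediate inclusion (0.05 to 0.95) and the deepest such event of each substrate group; further calls are named as the rest of the 38. Members, lists and substrate groups were chosen with earlier results of these data known. At the edge of the rule, SLC35G1 and SLC25A36 events at 19.75 reads were left out, and an SLC44A3 event at 20.25 reads was kept. Some items are not reported here.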

Additional observations from a re-analysis of the deposited data

How the results depend on the processing

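The count of 38 called SLC events was 18 with the minimum raised to 50 reads, 60 without one, 18 at an FDR under 0.01, 62 at a difference of at least 0.05 and 11 at a difference of at least 0.2; these follow from the construction of the thresholds. It was 49 with the minimum lowered to 10 reads and 35 with sets that do not overlap, where the direction of change was also fixed by construction. The count was 29 when the deepest event alone stood for each exon, which drops calls on an exon's other events. With the adjustment over tested events it was 36. Shares over all tested events at these settings are not given here, so these counts do not compare SLC genes with the rest. Leaving out each library in turn, 24 to 37 of the calls kept a difference of at least 0.1, the lowest without library 2 of the second set. Where both libraries of a set were at 1, leaving out 1 of them could not move the difference. The quasi-binomial count of 1 stayed 1 with other read minimums. With a library left out it ranged from 0 to 44 (4.41% of members, beside 3.41% of all tested events), the highest without library 1 of the second set, which sets library 2 of that set alone against the first set and assumes that it varies like the others. It was 0 with full degrees of freedom for sets at 0 or 1, the model as first fitted, so of these 2 versions SLC20A1 passes in the one adopted after that 0 was seen. Limma with precision weights, also chosen after the data were seen, gave 4, SLC20A1 among them. The difference of the SLC38A1 exon of 115 nt turned from 0.175 to -0.0162 without library 2 of the second set, and was 0.367 without library 1 of that set. Of 69 differences of single events, 25 moved by more than the spread within sets without the length correction, and 0 with reads pooled over a set. The planned edgeR test was not run. No paired analysis was possible because the columns carry no replicate numbers of the labels. Called events had a median of 45.1 reads and the others 134.5, so the calls rest on wide counting intervals.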

Other observations

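The last 2 bases of the exon were AG, on the sense strand, in 23 of 31 called SLC exons whose sequence could be read (74.2%), in 88 of 184 uncalled SLC exons of intermediate inclusion (47.8%) and in 211 of 431 nearly always included ones (49.0%). Some called exons share their 3' end, as the SLC30A6 pair does, so the same last bases may count more than once. These shares are a description chosen after the calls were seen, with no test. Exon ends were not counted in genes outside the family, so whether the share is particular to called SLC exons is not known.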
